A study of Homo sapiens with 9 samples.

Results

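NEAT1 and MALAT1 are neighbouring genes on chromosome 11 whose products are long non-coding RNAs. They were followed through the RNA polymerase II (RNAPII) peaks of 5 ChIP-seq lists. The peaks considered were all those touching either annotated gene by at least 1 bp, 26 of the 142069 peaks in the 5 lists together. The control shRNA list contributed 4 of its 5287 peaks, shRNA5 2 of 23698, shRNA7 2 of 32124, the list without doxycycline 10 of 47060 and the list with doxycycline 8 of 33900.

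All libraries came from HEK293 cells, a line derived from human embryonic kidney. In the hairpin arm, cells were infected with a lentivirus that carried either the control (an empty pLKO.1 vector), shRNA5 or shRNA7, the last 2 directed against RECQL5, a DNA helicase that binds RNAPII. In the other arm, HEK293 T-REx cells carried the pcDNA4/TO-RECQL5 plasmid, from which full-length RECQL5 is expressed in the presence of doxycycline, and were grown at 0.0 or 1.0 ng/ml of the drug. All cells of the RNAPII libraries of that arm therefore held the plasmid, and those of the hairpin arm did not. The antibody recognised all forms of RNAPII, and non-specific IgG libraries served as background of the peak calls. All peaks of a list together held between 842310 and 6698771 tags, and library totals are not part of the lists. The 3 hairpin lists used here are shorter than the study describes, and the control one is so by the largest factor. A region with no peak may therefore be one whose peak is not in the list, and all coverage, gap, rank and ratio values that involve these lists carry that limit. Every group was 1 library, so no difference below has a replicate check and no test was possible.

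NEAT1 RNA is the scaffold of paraspeckles, nuclear bodies that assemble around it while it is transcribed. The gene makes a short polyadenylated isoform and a long one that starts at the same place and reads on. It is the long isoform that builds the body. MALAT1 RNA is among the most abundant nuclear RNAs and is enriched in nuclear speckles, where splicing factors collect. The 3′ ends of MALAT1 and of long NEAT1 are not made by ordinary polyadenylation but by cleavage with RNase P at a tRNA-like fold. Both genes are highly transcribed in most cell lines and hardly spliced.

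In the GENCODE annotation of GRCh37 (hg19, the build of the lists), NEAT1 (ENSG00000245532) occupies chr11:65190245-65213011 on the plus strand, 22767 bp. Its short isoform NEAT1-201 ends at 65193928, 3684 bp from the start, and the long isoform NEAT1-202 runs as 1 unspliced exon to the gene end. MALAT1 (ENSG00000251562) occupies chr11:65265111-65275544 on the same strand, 10434 bp. Of its 66 annotated transcripts, 33 start near a downstream position, most often at 65266516, 1405 bp after the gene start. RefSeq lists a MALAT1 start at the same base. Between the genes lie 52099 bp.

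The sequences under recurring summits are shown first. At both genes the position of the main summit (the base with the highest tag pile-up in a peak) was what the 5 lists shared most closely. They are GRCh37 plus-strand sequences of 200 bases. Capitals mark the span from the lowest to the highest summit used, and in MALAT1 also the letters TATAAA. All 5 lists gave a summit at both starts. Between the genes the span is that of shRNA7 and both doxycycline lists, as the shRNA5 summit lay outside the window. Near the NEAT1 3′ end it is that of the control shRNA and both doxycycline lists, from summits before the gene end only. The windows are chr11:65190244-65190443 at the NEAT1 start, chr11:65266465-65266664 at the downstream MALAT1 start, chr11:65244825-65245024 at a peak between the genes, and chr11:65212381-65212580 near the 3′ end of NEAT1.
NEAT1 start: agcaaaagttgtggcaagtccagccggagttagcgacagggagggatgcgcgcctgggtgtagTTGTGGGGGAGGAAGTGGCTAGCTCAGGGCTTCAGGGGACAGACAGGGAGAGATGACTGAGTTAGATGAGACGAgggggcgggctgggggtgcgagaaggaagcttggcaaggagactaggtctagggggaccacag
MALAT1 downstream start: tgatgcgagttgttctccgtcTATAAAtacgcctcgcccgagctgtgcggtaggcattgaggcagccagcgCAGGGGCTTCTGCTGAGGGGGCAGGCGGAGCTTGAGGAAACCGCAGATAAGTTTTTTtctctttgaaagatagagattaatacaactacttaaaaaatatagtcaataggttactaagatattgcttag
Peak between the genes: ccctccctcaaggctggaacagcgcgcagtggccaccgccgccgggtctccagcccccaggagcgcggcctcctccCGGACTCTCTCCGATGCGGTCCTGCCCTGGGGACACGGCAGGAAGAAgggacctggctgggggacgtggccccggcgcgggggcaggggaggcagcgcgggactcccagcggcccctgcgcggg
NEAT1 3′ end: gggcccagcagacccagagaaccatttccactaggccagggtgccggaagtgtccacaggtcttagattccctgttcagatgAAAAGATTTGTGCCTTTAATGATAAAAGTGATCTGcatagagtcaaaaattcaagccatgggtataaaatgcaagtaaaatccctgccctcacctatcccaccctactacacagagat

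At NEAT1, the summit of the most tagged peak fell within 74 bp in all 5 lists. In the hairpin arm it lay 135 bp after the gene start with the control vector, 109 bp upon shRNA5 and 62 bp upon shRNA7. In the T-REx cells it lay 70 bp after it without the drug and 83 bp with the drug. At MALAT1 the 5 summits fell within 57 bp, not at the start of the gene but after the downstream start. They lay 33, 76, 50, 32 and 20 bp after it in the same order of lists. The short distances from an annotated start were thus shared by both arms.

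The letters TATAAA stand 30 bp before the downstream MALAT1 start, at 65266486, on the transcript strand. In the RefSeq promoters (250 bases before to 50 after a start), 7.33% of 35116 held TATAAA on the transcript strand and 11.5% on either strand. On the transcript strand, 2.43% held it between 45 and 11 bases before the start. The same letters occur once near the 3′ end of NEAT1, at 65212525, and in neither of the other windows on either strand. The window between the genes was the richest in G and C (77.0%), against 60.5% at the NEAT1 start, 45.5% at MALAT1 and 46.0% at the 3′ end of NEAT1. A match of letters is a description only.

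**Figure D1:**
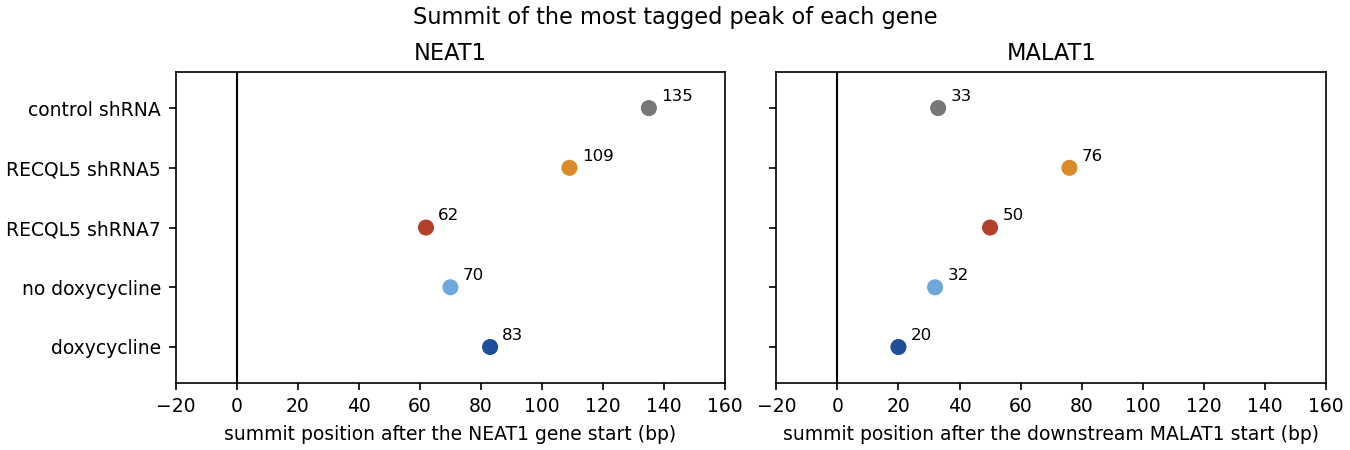
Summit position of the most tagged NEAT1 peak (left, bp after the gene start) and MALAT1 peak (right, bp after the downstream start at 1405 bp into the gene), 1 point per list. All points lie between 62 and 135 bp for NEAT1 and between 20 and 76 bp for MALAT1.

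The peaks on NEAT1 differed in number and extent. In the control shRNA list 3 peaks touched the gene. The first, chr11:65188452-65196331, was 7880 bp long with 860 tags. The second, chr11:65205573-65211341, was 5769 bp long with 279 tags, and the third, chr11:65212022-65213397, was 1376 bp long with 53 tags. The 5′ part of the gene and the distal part of the long isoform were thus called, and a stretch of several kb between them was not.

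Upon shRNA5, 1 peak of 25800 bp with 2855 tags, chr11:65188080-65213879, ran over the whole of NEAT1. Upon shRNA7, 1 peak of 30841 bp with 5770 tags, chr11:65185422-65216262, did so. The shRNA5 peak began 2165 bp before the gene and ended 868 bp past it, and the shRNA7 peak began 4823 bp before and ended 3251 bp past it. Both knockdown lists therefore held NEAT1 as an uninterrupted domain of RNAPII.

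In the doxycycline arm NEAT1 had a strong 5′ peak and a scatter of short, weak ones. Without the drug the 5′ peak was chr11:65188509-65196548, 8040 bp with 791 tags. The other 7 peaks lay at chr11:65201945-65202416 (10 tags), chr11:65205103-65205615 (9), chr11:65206514-65207005 (9), chr11:65207589-65208208 (12), chr11:65209395-65210092 (19), chr11:65212107-65212663 (13) and chr11:65212771-65214162 (37). They were 472 to 1392 bp long and added 109 tags in all.

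With doxycycline the 5′ peak was chr11:65188430-65195526, 7097 bp with 797 tags, almost as many as without. The other 5 peaks lay at chr11:65202306-65202764 (14 tags), chr11:65203880-65204401 (14), chr11:65208551-65209058 (17), chr11:65210183-65211158 (26) and chr11:65211965-65212820 (28). They were 459 to 976 bp long and added 99 tags. The 5′ peak held 87.9% of the NEAT1 tags without the drug (Wilson interval, as for all 95% intervals here, 85.6 to 89.9%) and 89.0% with it (86.7 to 90.8%), so the balance along the gene differed by less than counting error. It held 72.1% in the control shRNA list (69.5 to 74.6%). Intervals cover the error of counting tags only, not the spread between cultures.

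**Figure D2:**
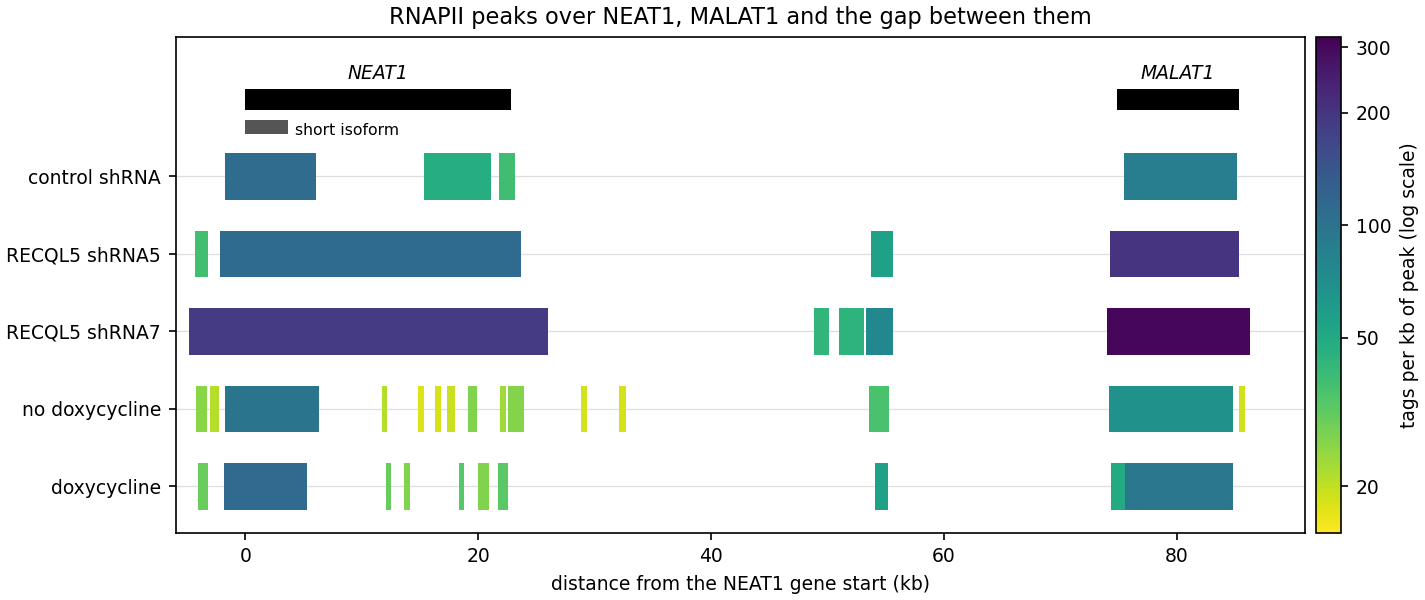
RNAPII peaks of the 5 lists drawn to scale by distance from the NEAT1 gene start (kb), each peak coloured by its tags per kb on a log scale, with the genes and the short NEAT1 isoform above. NEAT1 is a 5′ peak with separate distal peaks in the control shRNA, no doxycycline and doxycycline lists and 1 continuous peak upon shRNA5 and shRNA7.

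The part of NEAT1 shared with the short isoform lay wholly under a peak in all 5 lists. The rest of the long isoform, 19083 bp, was covered over 48.0% in the control shRNA list, 32.6% without doxycycline and 25.8% with it. Upon either RECQL5 hairpin it was covered over 100%. In the first 3 of these lists the 5′ peak did not stop at the end of the short isoform but 2403, 2620 and 1598 bp further on. Of the long-only part, 2205 bp (11.6%) were under a peak in all 3 lists and 7835 bp (41.1%) in none of them.

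A recurring position was found close to the 3′ end of NEAT1. Summits lay 548 bp before the gene end in the control shRNA list (53 tags), 514 bp without doxycycline (13 tags) and 524 bp with it (28 tags), within 35 bp of one another. Without doxycycline a further summit lay 521 bp past the gene end, with 37 tags. These are weak peaks, and the control shRNA one had a significance score of 55.67 (the −log10 of its p-value, times 10) where the lowest score in the list was 50.

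The number of peaks on NEAT1 was lower upon knockdown, 1 against 3, while more of the gene was covered. Among genes touched by a peak in both lists, 5.13% of 5753 had fewer peaks and more bases covered upon shRNA5, and 8.21% of 5551 upon shRNA7. Genes with only 1 control shRNA peak cannot meet this condition but are in the base. The shares therefore understate how common it was among genes with several control peaks. Coverage was also set beside that of the genes that were touched in a list and within 1.5-fold of NEAT1 in length. Full coverage was found for 15 of 2893 such genes upon shRNA5, NEAT1 among them, and for 46 of 3349 upon shRNA7. The median gene of that length was covered over 11.6% and 19.3%. In the control shRNA list 4.82% of 1266 such genes had as much coverage as NEAT1 (56.4%), and without and with doxycycline 7.52% and 9.10% did (43.5% and 37.8% of NEAT1).

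MALAT1 was held by 1 main peak in each list. In the control shRNA list the peak was chr11:65265697-65275415, 9719 bp with 862 tags, and it began 586 bp inside the gene. Upon shRNA5 it was chr11:65264512-65275583, 11072 bp with 2223 tags, and upon shRNA7 chr11:65264212-65276488, 12277 bp with 3725 tags. Both knockdown peaks thus took in the gene start, which the control shRNA peak left out. Peaks of both doxycycline lists, given next, covered it as well.

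Without doxycycline the main MALAT1 peak was chr11:65264408-65275095, 10688 bp with 737 tags. A second peak of 10 tags, chr11:65275543-65276079, reached into the gene by 2 bp and lay otherwise beyond its 3′ end. With doxycycline the gene had 2 adjoining peaks only 37 bp apart. The first, chr11:65264617-65265758, was 1142 bp long with 57 tags and had its summit 185 bp after the gene start, and the second, chr11:65265796-65275088, was 9293 bp long with 887 tags. The upstream MALAT1 start thus had a summit of its own in 1 of the 5 lists, where the call was split. Each peak has only 1 summit. Upon shRNA5 and shRNA7 and without doxycycline the main peak held that start, so no second summit could be recorded.

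Of MALAT1, 93.1% lay under a peak with the control vector and 100% upon shRNA5 and shRNA7. In T-REx cells 95.7% did so without doxycycline and 95.3% with the drug. The gene was therefore nearly filled in every condition, unlike NEAT1. Among touched genes within 1.5-fold of its length, 4.81% of 977 had as much coverage in the control shRNA list and 4.26% and 9.76% were full upon shRNA5 and shRNA7. Without and with doxycycline the shares were 2.07% and 2.66%.

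**Figure D3:**
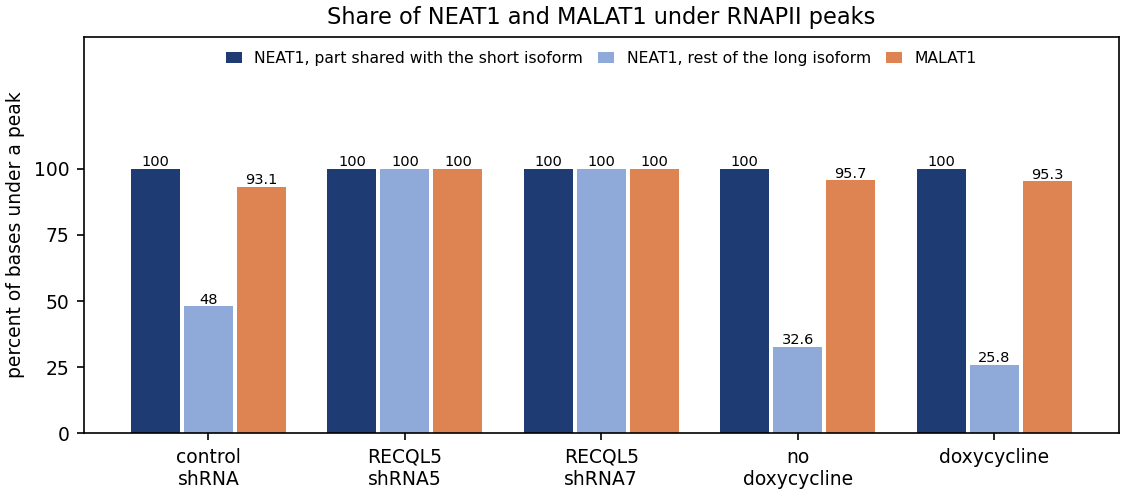
Percent of bases under a peak for the part of NEAT1 shared with the short isoform, the rest of the long NEAT1 isoform, and MALAT1, in each list. The long-only part of NEAT1 varies from 25.8% to 100%, and MALAT1 stays between 93.1% and 100%.

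Peaks on NEAT1 and MALAT1 held more deposited tags upon RECQL5 knockdown, over more called bases and by a smaller ratio than for the median gene. Peaks on NEAT1 held 1192 tags in the control shRNA list, 2855 upon shRNA5 and 5770 upon shRNA7. The ratios to the control were 2.40 (2.24 to 2.56) and 4.84 (4.55 to 5.15). For MALAT1 the tags were 862, 2223 and 3725, and the ratios 2.58 (2.38 to 2.79) and 4.32 (4.01 to 4.65). These are sums over regions called separately in each list, in which a stretch without a peak adds no tags. The peaks spanned 15025, 25800 and 30841 bp for NEAT1, with 79.3, 111 and 187 tags per kb of peak. They spanned 9719, 11072 and 12277 bp for MALAT1, with 88.7, 201 and 303 tags per kb. More polymerase per cell and more cells that hold it cannot be told apart in such data.

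Ratios of tags were then read beside those of all protein-coding and lncRNA genes touched in both lists. At least 2-fold more tags were found for 74.9% of genes upon shRNA5 and 94.8% upon shRNA7, and at least 2-fold fewer for 0.104% and 0.288%. The median gene had a ratio of 2.93 upon shRNA5 and 6.12 upon shRNA7. Relative to it, NEAT1 stood at 0.817 and 0.792 and MALAT1 at 0.880 and 0.707. NEAT1 was above 37.6% and 38.8% of genes and MALAT1 above 42.2% and 33.2%. A ratio past 2 was therefore the common state of genes in these lists. Divided by all tags in the peaks of their list, the ratios fell below 1, to 0.534 and 0.609 for NEAT1 and 0.575 and 0.543 for MALAT1. The direction thus depends on the scale. The study's methods describe similar numbers of reads for the libraries compared, which bears on tags as deposited, but the lists give no totals by which to check it.

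Between the hairpins, NEAT1 had 2.02-fold more tags upon shRNA7 than upon shRNA5 (1.93 to 2.11) and MALAT1 1.68-fold more (1.59 to 1.77). The shRNA7 peaks were also the wider ones, and with tags shared out by the part of each peak inside the gene, the ratios were 1.69 and 1.51.

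The doxycycline arm gave small differences in tags. NEAT1 had 900 tags without and 896 with doxycycline, a ratio of 0.996 (0.908 to 1.09) that includes 1. MALAT1 had 747 and 944 tags, a ratio of 1.26 (1.15 to 1.39). The peaks spanned 12784 and 10418 bp for NEAT1 and 11225 and 10435 bp for MALAT1. Of 13594 genes, 6.53% had at least 2-fold more tags with the drug and 11.1% at least 2-fold fewer, and the median ratio was 0.960. NEAT1 was above 52.8% of these genes and MALAT1 above 73.3%, so neither stood far from the rest. The interval of NEAT1 lay below that of MALAT1.

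**Figure D4:**
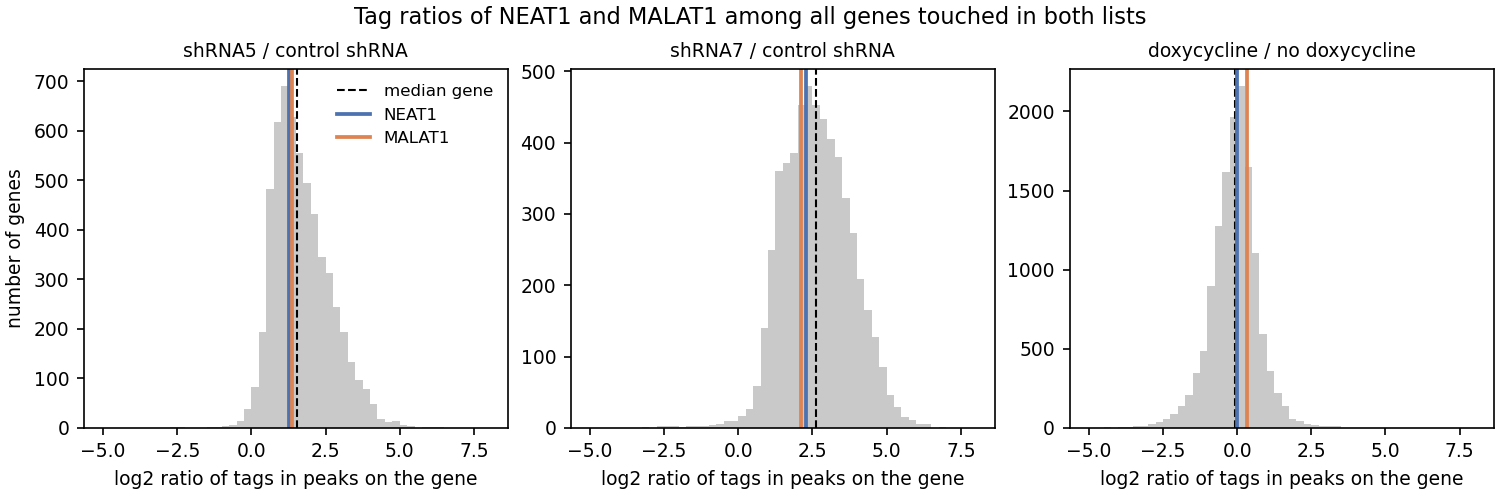
Histograms of the log2 ratio of tags for all genes touched in both lists of each comparison (number of genes on the y axis), with the median gene as a dashed line and NEAT1 and MALAT1 as coloured lines. Both genes lie left of the median gene in the knockdown comparisons, and MALAT1 lies right of it with doxycycline.

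Levels per length were compared between the genes with tags shared out in the same way. NEAT1 had 43.1 tags per kb of gene with the control vector, 111 upon shRNA5 and 187 upon shRNA7. Without the drug it had 30.7 and with the drug 30.4. MALAT1 had 82.6, 201, 303, 66.0 and 88.1 in these lists. MALAT1 was the higher in each list, by 1.92, 1.81, 1.62, 2.15 and 2.90-fold in the same order. A stretch without a peak adds no tags, and the long-only part of NEAT1 was covered over 48.0, 100, 100, 32.6 and 25.8% in that order. The folds are therefore not compared between lists.

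Few genes had a higher level per kb than MALAT1. Among touched genes of at least 5 kb it ranked 46 of 4711 with the control vector, 4 of 11560 upon shRNA5 and 6 of 13661 upon shRNA7. In T-REx cells it ranked 69 of 14313 without the drug and 44 of 11680 with the drug. NEAT1 ranked 183, 92, 47, 289 and 386 in the same lists. Both genes thus sat near the top of every list. Ranks are not compared between lists, which differ in the number of genes touched.

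**Figure D5:**
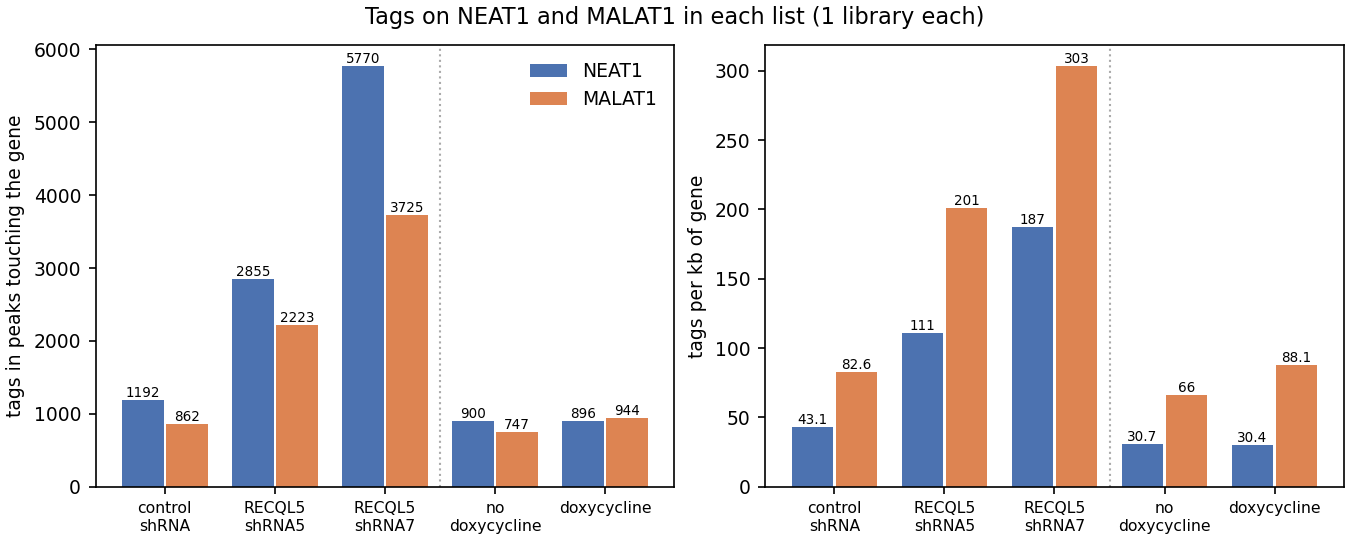
Bars give the tags in peaks that touch NEAT1 or MALAT1 (left) and the tags per kb of gene, shared out by overlap (right), in each list of 1 library, with the 2 arms parted by a dotted line. MALAT1 is above NEAT1 per kb in each list although NEAT1 has more tags in 4 of the 5.

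Within their lists the main peaks were among the longest and most tagged. By tags the NEAT1 peak ranked 90 with the control vector, 27 upon shRNA5 and 15 upon shRNA7, and 99 without and 130 with the drug. The MALAT1 peak ranked 89, 58, 60, 114 and 101 in these lists of 5287, 23698, 32124, 47060 and 33900 peaks. By length the NEAT1 peak ranked 24 upon shRNA5 and 55 upon shRNA7, against 201 in the control shRNA list. The MALAT1 peak was 110 by length in the control shRNA list and 515 and 1049 upon shRNA5 and shRNA7. As a share of each list, the NEAT1 peak was in the top 3.80% by length with the control vector, 0.101% upon shRNA5 and 0.171% upon shRNA7, and the MALAT1 peak in the top 2.08%, 2.17% and 3.27%.

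Fold enrichment, the authors' ratio of a peak's height over local background, ordered the genes differently. For NEAT1 it amounted to 71.78 with the control vector, 64.44 upon shRNA5 and 49.73 upon shRNA7, and for MALAT1 76.64, 87.25 and 106.77. It thus went down for NEAT1 and up for MALAT1 across the same lists. The MALAT1 peak ranked 5 of 32124 by fold enrichment upon shRNA7 and the NEAT1 peak 103. In the doxycycline arm it was 203.01 without and 90.34 with the drug for NEAT1, and 128.45 and 70.78 for MALAT1. Peak height and background cannot be separated in the lists.

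Tag density of the most tagged NEAT1 peak was close in several lists. That peak spans the whole gene upon knockdown and only its 5′ part in the other lists. The control shRNA 5′ peak had 109 tags per kb of peak, and the far longer shRNA5 peak had 111. The control shRNA distal peaks had 38.5 and 48.4 tags per kb. The 5′ peak with doxycycline had 112 and that without 98.4, while the small distal peaks had 17.5 to 33.5. Of the most tagged peaks only the shRNA7 one stood apart, with 187. Over all peaks on NEAT1 the values were 79.3 in the control shRNA list, 111 upon shRNA5 and 187 upon shRNA7. Without and with doxycycline they were 70.4 and 86.0. How tags were spread inside the knockdown peaks is not recorded, so a 5′ to distal comparison was not possible there.

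Between NEAT1 and MALAT1 the lists were nearly empty. The distance from the last NEAT1 peak to the first MALAT1 peak came to 52299 bp with the control vector, 50632 bp upon shRNA5 and 47949 bp upon shRNA7. It came to 50245 bp without the drug and 51796 bp with the drug. The control shRNA list had no peak in it. Upon shRNA5 there was 1 peak with 103 tags, upon shRNA7 3 with 329 tags, without doxycycline 3 with 83 tags and with doxycycline 1 with 62 tags. Peaks thus covered at most 12.0% of the gap, and both domains stayed apart even where they were longest.

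The same stretch carried a peak in 4 of the 5 lists. It was chr11:65243988-65245821 upon shRNA5 (103 tags), chr11:65243530-65245863 upon shRNA7 (179 tags), chr11:65243762-65245511 without doxycycline (63 tags) and chr11:65244340-65245450 with it (62 tags). The stretch lies over 30 kb from the end of NEAT1 and over 19 kb from the start of MALAT1. GENCODE places ENSG00000289883, a minus-strand lncRNA from 65243986 to 65245043, under it. The RefSeq start of ENEMAL, a minus-strand lncRNA, was placed at 65244958 by an exact match of its promoter sequence to GRCh37.

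Summits of that peak lay 45 bp after the ENEMAL start upon shRNA7, 11 bp without doxycycline and 57 bp with it. The shRNA5 summit lay 351 bp before it and outside the printed window. Compared with the genes on either side the peak was small, and by tags it ranked 9815 of 23698 upon shRNA5 and 8684 of 32124 upon shRNA7, and 4129 of 47060 without and 5045 of 33900 with the drug. The control shRNA list, which has the fewest peaks, does not show whether the region was free of RNAPII there. The remaining 2 gap peaks upon shRNA7 were chr11:65239105-65240371 (55 tags) and chr11:65241190-65243336 (95 tags). Without doxycycline they were chr11:65219084-65219568 (9 tags) and chr11:65222349-65222952 (11 tags), the second of them at the start of the pseudogene FAUP4 and the lncRNA ENSG00000291174.

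A weak element also lay upstream of NEAT1. A peak with its summit 3864 bp before the gene was found upon shRNA5 (41 tags), and summits lay 3468 bp before it without doxycycline (25 tags) and 3461 bp before it with the drug (26 tags). Without doxycycline a further peak of 16 tags had its summit 2609 bp before the gene. Upon shRNA7 the NEAT1 peak itself extended over that stretch. The lncRNA ENSG00000290057, which ends shortly before the NEAT1 start, lay under the NEAT1 5′ peak in all 5 lists, and reads of the one cannot be told from those of the other.

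Other annotated genes of the neighbourhood mostly shared the members' peaks. TALAM1, the antisense transcript of MALAT1, and ENSG00000270117, at the 5′ end of MALAT1, lie inside it on the other strand, and ChIP-seq does not tell the strands apart. ENSG00000289259 was touched only by a peak of 55 tags upon shRNA7. No peak touched LINC02736, ENSG00000286756 or ENSG00000290061 in any list. The protein-coding gene FRMD8, upstream of NEAT1, had peaks with 494 tags upon shRNA7 and 35 without doxycycline and none in the other 3 lists.

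The genes most like NEAT1 and MALAT1 were sought by the pattern over the 5 lists. Likeness was the Euclidean distance between log2 tags per kb of gene, with each list centred on its median gene, over the 4414 genes of at least 5 kb touched in all 5 lists. The 3 nearest to NEAT1 were ENSG00000227627, a lncRNA on chromosome 6 (distance 0.486), LSR, a lipoprotein receptor (0.572), and TRIM28, a transcriptional co-repressor (0.662). MALAT1 was nearest to TALAM1 (0.167), which shares its peaks. After it came HNRNPU, a nuclear RNA-binding protein (0.506), and VIM, the intermediate filament vimentin (0.583). Between NEAT1 and MALAT1 the distance was 2.38. On the centred scale NEAT1 stood 4.22, 3.41, 3.24, 3.17 and 3.16 log2 units above the median gene in the order of the lists above, and MALAT1 5.16, 4.27, 3.94, 4.27 and 4.69.

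The genes of paraspeckle proteins, the partners of NEAT1 RNA, were touched by a peak in 13 of 16 cases with the control vector, 16 upon shRNA5, 14 upon shRNA7 and all 16 in either doxycycline list. Over all protein-coding genes the shares touched were 22.2%, 52.0%, 60.2%, 63.4% and 52.6% in the order of the lists, and over all lncRNA genes 7.23%, 20.3%, 26.3%, 24.5% and 18.9%. In the genes touched in both lists the median tag ratio was 2.07 upon shRNA5 (8 of 13 at least 2-fold up, against 74.9% of all genes) and 2.69 upon shRNA7 (10 of 11, against 94.8%). These medians lie below the 2.93 and 6.12 over all genes. With doxycycline the median was 1.48 over 16 genes, against 0.960 over all, and 2 were at least 2-fold up and 1 at least 2-fold down, against 6.53% and 11.1% of all genes. SFPQ, a core paraspeckle protein, had 2153, 3607 and 4814 tags in the control shRNA, shRNA5 and shRNA7 lists and 1630 and 2084 without and with doxycycline.

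MATR3, a nuclear matrix RNA-binding protein, had fewer tags upon shRNA7, with 2227 in the control shRNA list, 5161 upon shRNA5 and 1003 upon shRNA7. EWSR1 and TARDBP had 1216 and 697 tags in the control shRNA list and no peak upon shRNA7. Of the 737 genes with at least 500 tags in the control shRNA list, 79 had no peak upon shRNA7 (10.7%) and 8 had none upon shRNA5 (1.09%). NEAT1 and MALAT1 were held by both lists. It is not known whether such genes lacked called peaks or whether their peaks are missing from the list used here, so a total of 0 tags cannot be read as an absence of RNAPII. MATR3 was covered over 92.5% upon shRNA5 and 27.5% upon shRNA7, so its lower total upon shRNA7 carries the same limit.

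Genes of nuclear speckle proteins, the neighbours of MALAT1 RNA, were touched in 9 of 10 cases with the control vector, 9 upon shRNA5, 8 upon shRNA7 and 10 in both doxycycline lists. Their median ratios were 2.14 over 8 genes upon shRNA5 (5 at least 2-fold up), 3.52 over 7 upon shRNA7 (7 up) and 1.28 over 10 with doxycycline (1 up). Over all genes the medians were 2.93, 6.12 and 0.960 and the shares at least 2-fold up 74.9%, 94.8% and 6.53%. Of all protein-coding genes 22.2%, 52.0%, 60.2%, 63.4% and 52.6% were touched in the order of the lists. The splicing factor SRSF3 had 2249, 3869, 5850, 1587 and 1715 tags in the order of the lists, with its gene fully covered in each. SRSF1 had no peak in the control shRNA list, 4134 and 5564 tags upon shRNA5 and shRNA7, and 589 and 838 without and with doxycycline. SON, a speckle scaffold, had 1740, 3892, 0, 1059 and 1933 tags.

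Genes of 3′ end processing (subunits of RNase P, the tRNA 3′ endonuclease ELAC2, and the cleavage factor subunits CPSF6 and NUDT21) were touched in 6 of 12 cases with the control vector, 12 upon shRNA5, 11 upon shRNA7 and 12 in both doxycycline lists. Their median ratios were 5.10 over 6 genes upon shRNA5 (5 at least 2-fold up), 7.32 over 5 upon shRNA7 (5 up) and 1.17 over 12 with doxycycline (1 up, 1 down). At least 2-fold more tags were also the state of 74.9% and 94.8% of all genes upon shRNA5 and shRNA7, with medians of 2.93 and 6.12, and of 6.53% with doxycycline. At least 2-fold fewer tags with doxycycline were found for 11.1% of all genes. Of all protein-coding genes 22.2%, 52.0%, 60.2%, 63.4% and 52.6% were touched in the order of the lists. CPSF6 had 384, 1900, 2491, 224 and 397 tags. ELAC2 had 136, 1055, 1703, 231 and 101, and was thus the gene at least 2-fold down with doxycycline. CPSF6 and NUDT21 are also in the paraspeckle group.

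Among the other long non-coding RNA genes, a peak touched 5 of 12 with the control vector, upon shRNA5 10 and upon shRNA7 11, and in T-REx cells 10 without and 11 with the drug. In the 5 touched in both hairpin lists the median ratio was 2.52 upon shRNA5 (5 at least 2-fold up) and 3.78 upon shRNA7 (4 up), and in 10 genes it was 0.955 with doxycycline (2 up). The shares of all genes at least 2-fold up were 74.9%, 94.8% and 6.53%. Of all lncRNA genes 7.23%, 20.3%, 26.3%, 24.5% and 18.9% were touched in the order of the lists. TUG1, which was covered over 42.6% in the control shRNA list, was fully covered upon shRNA5 and shRNA7, with 233, 850 and 1601 tags. NORAD went from 65.5% to full coverage with 260, 556 and 764 tags, so NEAT1 was not the only lncRNA gene to be filled upon knockdown. FTX had 1245, 3056 and 821 tags, and MIR17HG 441, 1112 and 1665. The lower FTX total upon shRNA7 carries the limit given for MATR3. MEG3 had no peak in any list.

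As a check on the cells, marker genes were looked up for a peak within 500 bp of their start. Of the embryonic kidney markers, LHX1 had such a peak upon shRNA7 and without doxycycline and in no other list, and PAX2 had none in any list. None of PTPRC, CD3E, ALB, HBB and MYOD1, markers of other cell types, had one in any list. The kidney label is therefore borne out only weakly by these peak lists.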

How the data were processed

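RNAPII and IgG ChIP DNA was sequenced as short tags. The authors aligned reads to hg19 with Bowtie 0.12.7 after CASAVA 1.8 and called peaks with MACS 1.4.2, separately per RNAPII library against IgG. The untreated IgG library served both doxycycline lists. Its cell line is given as HEK293 only, and whether its cells carried the RECQL5 plasmid is not stated. The deposited lists hold each peak's position, summit and tag count, not normalised. They also hold the authors' significance score (the −log10 of p, times 10), fold enrichment as a ratio, and FDR in percent, used only to rank or filter peaks. Library totals were not used.

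Peaks were joined to GENCODE release 44 on GRCh37 by an overlap of at least 1 bp, in Python 3.11.15 with pandas 2.3.3 and scipy 1.17.1. Whole-peak tags were summed per gene. Ratios were taken only within an arm, with the 95% Wilson interval of the share turned into odds. The background was the 38659 protein-coding and lncRNA genes on chromosomes 1 to 22 and X, of which neighbours can share a peak. Per-kb levels share tags out by the part of a peak inside the gene. Named genes were NEAT1, MALAT1, annotated neighbours, the 2 to 4 most tagged members of 4 groups, and the 3 most alike genes. Some genes of these lists are not reported here. EWSR1, TARDBP and MEG3 were named after their values were seen. RefSeq promoters were placed by exact match, and overlap functions were tested on simulated data. Results were recomputed with stricter peaks, merged peaks, other overlap rules and scaled tags. The members and lists were chosen with earlier results of these data known.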

Additional observations from a re-analysis of the deposited data

How the results depend on the processing

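With 1 library per group, none could be left out. No paired analysis was possible because the groups share no replicates beyond that 1. Of 194 recomputed values for 36 results, 169 stayed close to the main value, 17 moved and 8 reversed. Close meant inside the interval of the main value for ratios and within 1.5-fold otherwise. A reversal was counted only where that interval excluded 1. NEAT1 ratios with over without doxycycline that rose above 1 were therefore not counted as reversed. All 8 reversals were knockdown tag ratios scaled by the tags of the list or by the median gene. Divided by all tags in peaks, NEAT1 was 0.534 upon shRNA5 and 0.609 upon shRNA7, and MALAT1 0.575 and 0.543. Divided by the median ratio of all genes, they were 0.817 and 0.792, and 0.880 and 0.707. Values below 1 on this last scale mean a smaller ratio than that of the median gene, not fewer tags than in the control. With tags shared out by the part of the peak inside the gene, NEAT1 was 2.57 and 4.34, and MALAT1 was 3.67 upon shRNA7. With fold enrichment of at least 10, NEAT1 with over without doxycycline was 0.886, since weak distal peaks are then dropped, and NEAT1 coverage with doxycycline was 23.2% over 1 peak. With a score of at least 100, 3 peaks touched NEAT1 without doxycycline and 3 with it, 1 touched MALAT1 without doxycycline, and 1 lay between the genes upon shRNA7 and 1 without doxycycline. With peaks under 1 kb apart merged, NEAT1 had 5 peaks without doxycycline, MALAT1 had 1 in each doxycycline list, and 1 lay in the gap upon shRNA7. With fold enrichment of at least 10 also 1 lay there. With at least 50% of the peak inside the gene, MALAT1 had 1 peak without doxycycline. The gap length moved under no alternative by over 1.5-fold. Depth limits the weakest peaks most, which rest on 9 tags in the list without doxycycline.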

Other observations

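The 2 summits lie in sequence of unlike composition. Over 2 kb centred on the summit, A and T made up 37.5 to 37.95% at NEAT1 and 59.55 to 59.7% at MALAT1 in the 5 lists. The median over all chromosome 11 peaks of a list lay between 47.9 and 51.1%. At most 13.6% of chromosome 11 peaks were as poor in A and T as NEAT1, and 78.9 to 90.5% were at or below MALAT1. Over whole genes the difference was small, 55.9% for NEAT1 and 58.0% for MALAT1, against 49.4% for the stretch between them.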
